A study of Mus musculus with 28 samples.

Results

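Male mice received the drug TCPOBOP for 8 weeks, or vehicle, under a high or a low corn oil regimen, and the quantity described here is how far the liver's response to TCPOBOP differed between the regimens. For each gene the response was log2((TCPOBOP + 0.1) / (vehicle + 0.1)), computed from the authors' pooled FPKM (fragments per kilobase of gene, scaled to library size). The difference was the response under high corn oil minus the response under low corn oil. A gene entered when it had at least 1 FPKM in any of the 4 groups, which kept 11081 of 24197 genes and left out 13116. Mir8116, at 1.0005 FPKM in its highest group, lay just inside that limit, and Dand5, at 0.9987 FPKM, just outside. No measured response chose the genes.

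Nuclear polyadenylated RNA of livers of outbred CD-1 males (Crl:CD1(ICR)) was sequenced as stranded libraries, each from 1 liver, and 14 of the study's 28 libraries belong to these groups. The high corn oil regimen gave 20 µl of oil per g body weight with 2% DMSO. Its groups were 3 mice on TCPOBOP, dosed at 3 mg/kg and then 1 mg/kg weekly, and 3 mice on vehicle for 8 weeks, all aged 15 to 16 weeks. The low corn oil regimen gave 4 µl per g with 10% DMSO. Its groups were 4 mice on TCPOBOP, dosed at 3 mg/kg and then 1.5 mg/kg, aged 15 to 16 weeks, and 4 mice on vehicle for 4 to 8 weeks. Of these vehicle mice 2 were aged 11 to 12 weeks and 2 were aged 15 to 16 weeks. The high corn oil libraries carry the set code G184 in their titles and the low corn oil libraries the code G186. Oil volume, DMSO share, later dose, set code and the age and treatment time of the vehicle mice all changed with the regimen, so their parts in a difference cannot be told apart.

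TCPOBOP activates CAR, the constitutive androstane receptor made by the gene Nr1i3. This nuclear receptor of hepatocytes switches on genes of drug oxidation, conjugation and export. Other signals recur below. Growth hormone acts on hepatocytes through the transcription factor STAT5, which drives feedback inhibitors such as Cish and Socs2 and sets the sex-biased expression of many liver genes, among them the major urinary proteins. Interferons act through transcription factors, among them STAT2 and IRF9, and their signalling uses 2 known kinds of DNA word near the start of their target genes, a STAT-type word (the gamma-activated sequence) and an interferon-stimulated response element.

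The table holds 1 pooled value per group, so a level or a difference carries no spread between mice, and library depth is unknown. Markers of the labelled tissue were abundant. Alb, the gene of serum albumin, stood at 4881 and 4555 FPKM in TCPOBOP and vehicle livers of the high regimen and at 4121 and 2433 FPKM in those of the low regimen, in the authors' deposited table. None of 21 defining markers of hepatocytes, Kupffer cells, leukocytes, stellate cells, endothelium and cholangiocytes was listed at 0 in any of the 4 groups. The Kupffer cell markers stood at 7.97 FPKM (Vsig4) or more in every group, so the nuclei included those of other cells. The cholangiocyte markers Krt7, Krt19 and Epcam stayed under 1 FPKM throughout, which does not show those cells to be present. In such bulk samples, fewer cells of a type and less RNA per cell cannot be told apart.

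Most responses were alike under both regimens. The difference was at least 2-fold (1 on the log2 scale) in 405 of the 11081 genes (3.65%). The response was larger under high corn oil in 124 (1.12%) and smaller in 281 (2.54%). Larger and smaller are meant with sign here and below. A deeper fall under high corn oil therefore counts as a smaller response, and a weaker fall as a larger one. The middle 50% of all genes lay between -0.37 and 0.07, with a median of -0.15 that reflects the FPKM scale. With the authors' deposited fold changes, which carry a further scaling between groups, the median was 0.0042, and 200 genes had a larger and 238 a smaller response. After centring on the median the counts were 172 larger and 201 smaller, so the excess of smaller responses depended on the scale. Small RNA names (those starting Mir or Snor), whose genes can lie inside longer ones, made up 410 of the 11081 genes and 125 of the 405. Among the other genes 2.62% were past 2-fold, 99 larger and 181 smaller.

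Core CAR targets responded under both regimens. Cyp2b10, the prototypical CAR target, stood at 389 FPKM in TCPOBOP and 1.72 FPKM in vehicle livers under high corn oil, against 238 and 2.29 FPKM under low corn oil, in the authors' deposited table. It rose under both regimens (adjusted p = 1.66e-74 under high and 7.41e-80 under low corn oil in the authors' deposited table), with a difference of 1.10. Nr1i3 itself stood at 25.2 and 115 FPKM in TCPOBOP and vehicle livers under high corn oil and at 31.0 and 171 FPKM under low corn oil. It fell under both (adjusted p = 3.61e-12 and 7.5e-11 in the authors' deposited table), and its difference was 0.27. The stress-induced growth regulator Gadd45b was likewise high in TCPOBOP livers only, at 16.1 against 0.463 FPKM under high and 15.3 against 0.735 FPKM under low corn oil. Its difference was 0.64.

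At an adjusted p under 0.05 in the authors' deposited table, 815 genes rose (7.35%) and 386 fell (3.48%) under high corn oil, which is 10.8% in all. Under low corn oil 631 rose (5.69%) and 580 fell (5.23%), which is 10.9%. The 380 genes that rose under both make up 46.6% of the high and 60.2% of the low corn oil list. The 190 that fell under both make up 49.2% and 32.8% of these lists. A call under 1 regimen alone is no test of a difference between the regimens. The calls went opposite ways for 3 genes. Irf9 and Tbc1d5 fell under high and rose under low corn oil, and Cyp2d11 rose under high and fell under low corn oil.

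**Figure D1:**
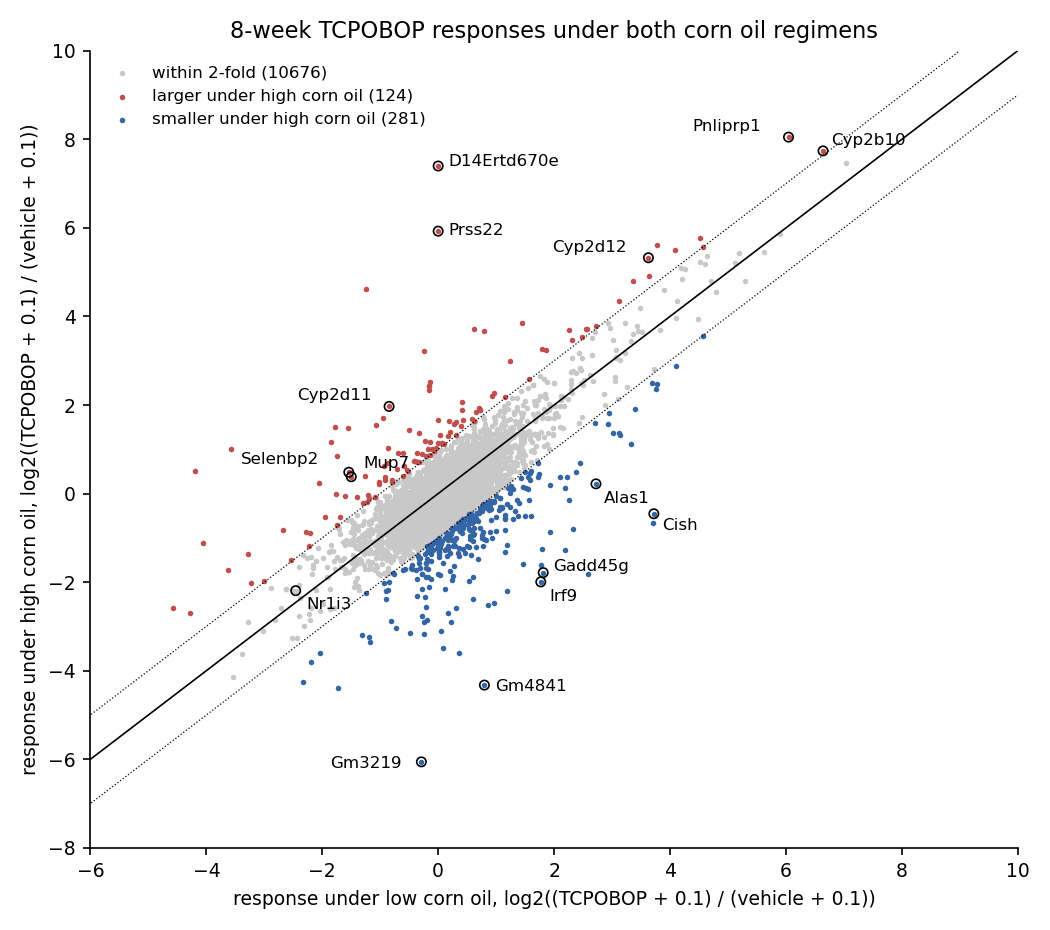
Each point is 1 of the 11081 genes, with the log2 response to TCPOBOP under low corn oil on the x axis and under high corn oil on the y axis. The solid line marks equal responses and the dotted lines a 2-fold difference. Of the 405 genes outside the dotted lines, 281 lie below and 124 above, and Cish, Irf9 and Alas1 lie well below. Nr1i3 lies near the solid line, at a difference of 0.27, and Cyp2b10 just past the upper dotted line, at 1.10.

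A response can differ because the TCPOBOP livers differ between the regimens, because the vehicle livers do, or both. The difference was therefore split into a TCPOBOP term (log2 of the level in TCPOBOP livers, high over low corn oil) minus a vehicle term (the same in vehicle livers). A gene was placed on the TCPOBOP side where the TCPOBOP term made at least 2/3 of the difference, on the vehicle side where it made at most 1/3, and on both sides between. Of the 124 larger responses 46 lay on the TCPOBOP side, 52 on the vehicle side and 26 on both. Of the 281 smaller responses 120 lay on the TCPOBOP side, 99 on the vehicle side and 62 on both. Without the small RNA names the larger ones were 39, 37 and 23, and the smaller ones 58, 76 and 47, so that the vehicle side then held more of the smaller responses than the TCPOBOP side.

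The authors also compared the TCPOBOP livers of both regimens directly, using the same libraries, and 1520 genes (13.7%) passed that test, 822 higher (7.42%) and 698 lower (6.3%) under high corn oil. The vehicle term had the sign of the TCPOBOP term in 1423 of the 1520 genes (93.6%), compared with 70.6% of all 11081. The sides were sorted by the TCPOBOP term that this test measures, so its calls are no separate check of them. No deposited comparison tests the vehicle groups against each other.

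**Figure D2:**
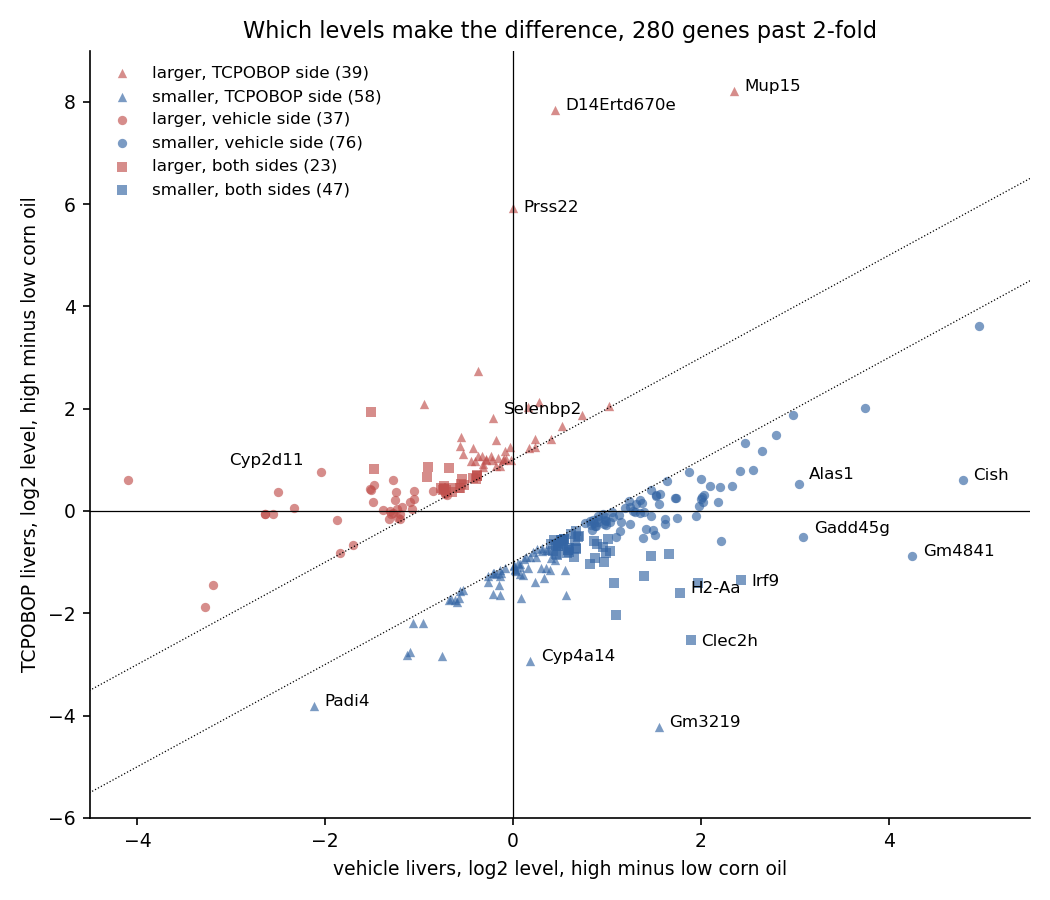
Points are the 280 genes past 2-fold whose names do not start with Mir or Snor, with the vehicle term on the x axis and the TCPOBOP term on the y axis, both as log2 level, high minus low corn oil. Colours give the direction of the difference and shapes its side, and the dotted lines mark a 2-fold difference. Cish, Gadd45g and Alas1 lie far to the right near a TCPOBOP term of 0, while D14Ertd670e and Prss22 lie near a vehicle term of 0 with the TCPOBOP term far above it.

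The most marked vehicle-side gene was Cish, a feedback inhibitor of cytokine signalling that STAT5 induces. Cish stood at 23.5 FPKM in TCPOBOP and 32.3 FPKM in vehicle livers under high corn oil, against 15.3 and 1.07 FPKM under low corn oil. Of the 4 values only that of low corn oil vehicle livers was low. It rose by 3.72 under low corn oil (adjusted p = 7.92e-13 in the authors' deposited table) and did not pass the test under high corn oil (response -0.46, adjusted p = 1). The difference was -4.18, made of a TCPOBOP term of 0.61 and a vehicle term of 4.79. The RefSeq start of Cish is shown because its first 30 bases hold 2 copies of the STAT-type word TTCNNNGAA, in capitals (GRCm38.p6, chr9:107296659-107296688, plus strand, 5′ to 3′).
Cish: TTCCTGGAAagTTCTTGGAAatctgtcaaa

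Further vehicle-side genes were also lowest in low corn oil vehicle livers. Alas1, the rate-limiting enzyme of heme synthesis, stood at 107 and 91.6 FPKM in TCPOBOP and vehicle livers under high corn oil and at 73.5 and 11.1 FPKM under low corn oil. Its TCPOBOP term was 0.54 and its vehicle term 3.04. Alas1 rose under low corn oil (adjusted p = 3e-26 in the authors' deposited table) but did not pass under high corn oil (response 0.22, adjusted p = 1). The proto-oncogene Myc stood at 5.17 and 4.71 FPKM under high corn oil, in TCPOBOP and vehicle livers, and at 5.54 and 1.14 FPKM under low corn oil. It too rose under low corn oil alone (adjusted p = 2.4e-11 in the authors' deposited table), with a difference of -2.05. Gadd45g, a growth-arrest gene, was highest in high corn oil vehicle livers. It stood at 18.6 and 64.4 FPKM in TCPOBOP and vehicle livers under high corn oil and at 26.5 and 7.48 FPKM under low corn oil. It fell under high corn oil (adjusted p = 0.0174 in the authors' deposited table), and its response of 1.81 under low corn oil did not pass the test (adjusted p = 0.118).

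Of 14 growth hormone and STAT5 genes measured, 4 had a smaller response (2.54% of all genes) and 0 a larger one (1.12%). The median difference was -0.44, beside -0.15 for all genes. The median TCPOBOP term was 0.08 and the median vehicle term 1.02. Besides Cish the 4 were the liver transcription factors Onecut1 and Foxa2 and the cytokine inhibitor Socs1. Onecut1 stood at 6.65 and 12.2 FPKM in TCPOBOP and vehicle livers under high corn oil and at 5.65 and 2.98 FPKM under low corn oil. Onecut1, Foxa2 and Socs1 passed the authors' test under neither regimen. Not every STAT5 target followed Cish. Socs2 stood at 14.6 and 14.9 FPKM in TCPOBOP and vehicle livers under high corn oil and at 4.21 and 3.44 FPKM under low corn oil, so both kinds of liver had more of it under high corn oil and the responses differed by only -0.32. Igf1, the growth factor that growth hormone induces, did likewise, at 28.9 and 24.6 FPKM under high and 17.1 and 12.0 FPKM under low corn oil.

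Interferon genes formed the next group. Irf9, a subunit of the interferon-activated complex, stood at 11.2 FPKM in TCPOBOP and 44.9 FPKM in vehicle livers under high corn oil, against 28.5 and 8.29 FPKM under low corn oil. Its levels crossed over, with vehicle above TCPOBOP under high and TCPOBOP above vehicle under low corn oil (adjusted p = 0.0251 and 0.0172 in the authors' deposited table). Of 28 interferon and antigen presentation genes 8 had a smaller response (2.54% of all genes) and 0 a larger one (1.12%). Their median difference was -0.35, with a median TCPOBOP term of 0.19 and a median vehicle term of 0.66. Other interferon genes rose alike under both regimens, such as the antiviral gene Rsad2 (3.76 against 0.970 FPKM under high and 2.89 against 0.727 FPKM under low corn oil, difference -0.0021).

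The interferon-inducible GTPases, which coat and disrupt the vacuoles of intracellular pathogens, were looked at as a whole family after these values were seen. All 18 measured guanylate-binding proteins and immunity-related GTPases had a difference below 0, as did 7525 of all 11081 genes. Past 2-fold in that direction were 2.54% of all genes and 17 of these 18. Their median difference was -1.51, the median TCPOBOP term -0.09 and the median vehicle term 1.52. In all 18 the vehicle level was higher under high than under low corn oil, as in 5864 of all 11081 genes. Gm4841 and Gm12250 reached 1 FPKM in high corn oil vehicle livers alone. For these genes the level limit fixed that direction in advance. Igtp stood at 20.1 and 30.2 FPKM in TCPOBOP and vehicle livers under high corn oil and at 14.5 and 6.46 FPKM under low corn oil. It rose under low corn oil (adjusted p = 0.00488 in the authors' deposited table) and did not pass under high (adjusted p = 0.978). Gbp10 stood at 5.54 and 10.2 FPKM in TCPOBOP and vehicle livers under high corn oil and at 8.32 and 2.12 FPKM under low corn oil. Gm4841 had the widest gap, at 0.235 and 6.61 FPKM under high and 0.513 and 0.253 FPKM under low corn oil. Near-identical members of this family can share reads, so their values are not independent of each other.

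Promoter words of the vehicle-side genes, chosen after these values were seen, were then counted from 250 bases before to 50 bases after each RefSeq gene start (GRCm38.p6). Of the 76 vehicle-side genes with a smaller response and no small RNA name, 48 had a promoter in that table. The palindromic STAT-type word TTCNNNGAA was in 11 of them (22.9%), compared with 8.32% of 8152 measured genes and 9.55% of all 27025 genes in the promoter table. The interferon-type word GAAANNGAAA, on either strand, was in 14 (29.2%), compared with 3.78% of the measured and 3.99% of all genes. The 2 words did not overlap in any of the 48. Among 24 vehicle-side genes with a larger response the words were in 2 and 0. In Igtp, Irgm2, Tgtp1 and Tgtp2 the words stood in line, with 2 bases between them (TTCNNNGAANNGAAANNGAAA, either strand). That joint word was in 5 of the 27025 promoters. Stretches of 3 of these genes are shown for it, with Gbp2 for an interferon-type word alone, 5′ to 3′ on the gene's strand and with the words in capitals. They lie at chr11:58199476-58199555 (plus strand, Igtp), chr11:58214877-58214956 (plus strand, Irgm2), chr11:49064233-49064312 (minus strand, Tgtp2) and chr3:142620583-142620662 (plus strand, Gbp2).
Igtp: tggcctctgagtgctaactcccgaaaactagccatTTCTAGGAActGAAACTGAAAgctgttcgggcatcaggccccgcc
Irgm2: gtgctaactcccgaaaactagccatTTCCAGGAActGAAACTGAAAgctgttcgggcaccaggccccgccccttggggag
Tgtp2: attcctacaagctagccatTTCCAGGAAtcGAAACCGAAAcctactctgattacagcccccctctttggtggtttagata
Gbp2: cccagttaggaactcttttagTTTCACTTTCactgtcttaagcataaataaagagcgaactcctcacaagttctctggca

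Paralogs carried much of these shares. Of the vehicle-side genes with a word, 6 of the 11 with the STAT-type and 9 of the 14 with the interferon-type word belong to the GTPase family, so their words are not separate observations. Among the 39 genes outside that family each word was in 5 (12.8%). Of the measured genes 8.32% had the STAT-type and 3.78% the interferon-type word, so the STAT-type share outside the family lay nearer to its background. Irgm2 stood at 6.96 and 8.66 FPKM in TCPOBOP and vehicle livers under high corn oil and at 6.32 and 2.89 FPKM under low corn oil. Tgtp2 stood at 1.03 and 1.50 FPKM under high and 1.14 and 0.376 FPKM under low corn oil, in TCPOBOP and vehicle livers. Gbp2 stood at 1.62 and 2.07 FPKM under high and 1.87 and 0.997 FPKM under low corn oil. All 3 had the lowest of the 4 values in low corn oil vehicle livers. Binding of STAT or IRF proteins was not measured here.

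**Figure D3:**
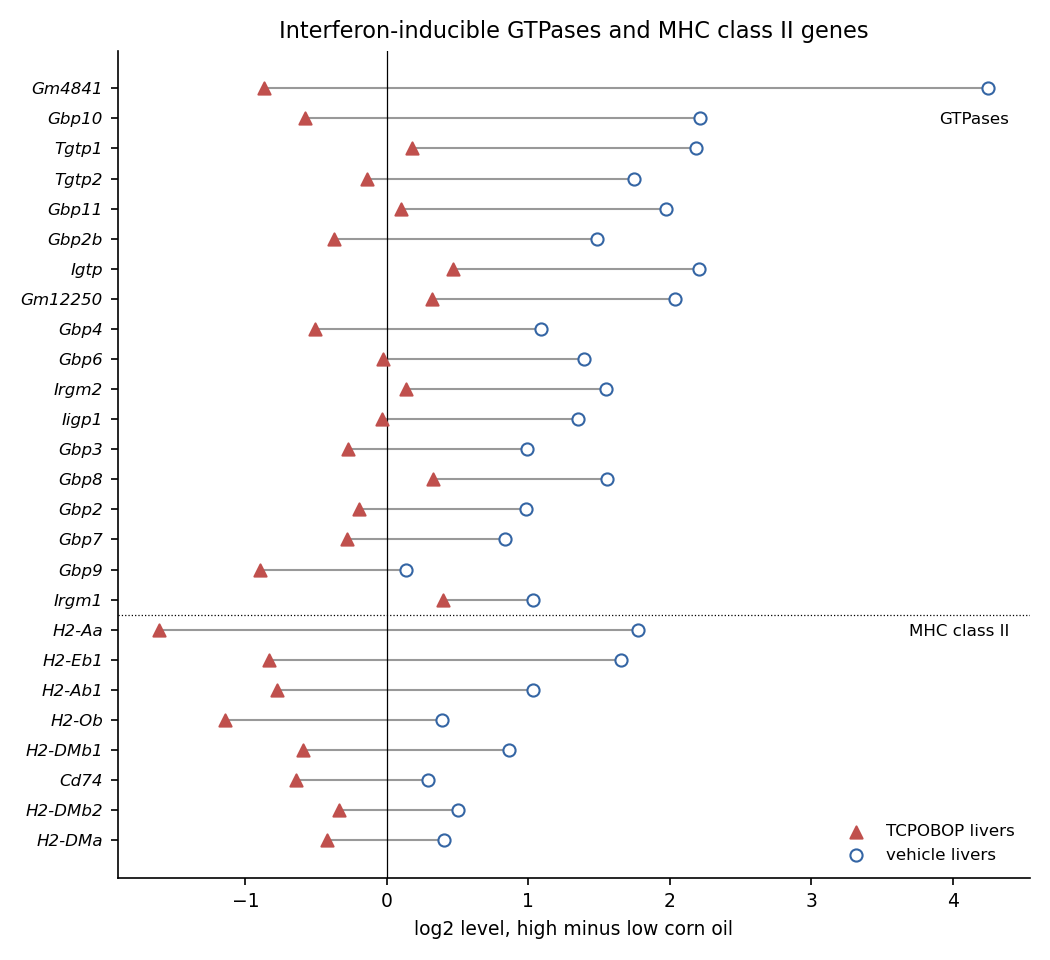
For each gene the triangle gives the TCPOBOP term and the open circle the vehicle term, as log2 level, high minus low corn oil, and their gap is the difference of the responses. The vehicle terms of all 18 GTPases lie right of 0 with the TCPOBOP terms on either side of it, and the TCPOBOP terms of all 8 MHC class II genes lie left of 0.

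MHC class II genes, which present antigen, had smaller responses from both sides. H2-Aa stood at 2.19 and 10.3 FPKM in TCPOBOP and vehicle livers under high corn oil and at 6.89 and 2.95 FPKM under low corn oil, a difference of -3.39. H2-Eb1 stood at 2.37 and 16.7 FPKM under high and 4.30 and 5.23 FPKM under low corn oil, in TCPOBOP and vehicle livers. Neither passed the authors' test under either regimen (lowest adjusted p = 0.0536, for H2-Aa under high corn oil, in the authors' deposited table). H2-DMb1 and H2-Ob did rise under low corn oil (adjusted p = 4.67e-06 and 0.0455 in the authors' deposited table). H2-Ob was also lower in TCPOBOP livers of the high than of the low regimen (adjusted p = 0.00347 in the authors' deposited table). Of 8 class II genes, with a median difference of -1.50, 5 were past 2-fold (3.65% of all genes). All 8 had a difference below 0, as did 7525 of all 11081 genes. The family was listed after its values were seen. Of 29 measured genes whose names start with H2-, the mouse MHC, 12 had a smaller (2.54% of all genes) and 0 a larger response (1.12%). H2-Q6 and H2-Q8 had identical deposited fold changes and p-values, as did H2-T9 and H2-T22, so the 12 hold 10 distinct results, and related H2 genes can share reads. The genes with a RefSeq chromosome and no small RNA name were then counted by chromosome, after these values were seen. Chromosome 17, which carries the MHC, held 5.37% of them. Of its 545 genes 17 (3.12%) had a smaller response, beside 1.68% over all chromosomes and 3.21% on chromosome 18. Chromosome 17 held 12 of the 43 smaller responses made on both sides, with 11 distinct results. Most of these 12 are H2 genes already counted above. Among the 12 was Glo1, a detoxifying enzyme outside the MHC family, at 57.0 and 88.2 FPKM in TCPOBOP and vehicle livers under high corn oil and 94.0 and 58.3 FPKM under low corn oil. CD-1 mice are outbred, and alleles were not called here.

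Acute phase genes, which the liver secretes in inflammation, had higher levels under high corn oil in both kinds of liver and mostly like responses. Of 25 measured, 16 were higher (7.42% of all genes) and 0 lower (6.3%) in TCPOBOP livers of the high than of the low corn oil regimen. These calls are at an adjusted p under 0.05 in the authors' deposited table. The TCPOBOP term had a median of 0.81 and the vehicle term a median of 0.89, and the median difference was -0.13. The exceptions with smaller responses were Orm2, Lcn2 and Saa2. Saa2, a serum amyloid A gene, stood at 251 and 193 FPKM in TCPOBOP and vehicle livers under high corn oil and at 20.4 and 6.09 FPKM under low corn oil. It rose under low corn oil (adjusted p = 0.000791 in the authors' deposited table) and did not pass under high (adjusted p = 0.761). Lcn2, which encodes an iron-scavenging lipocalin, rose under both, at 27.4 against 7.21 FPKM under high and 12.1 against 1.07 FPKM under low corn oil.

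Larger responses on the vehicle side have, by the definition of that side, a lower vehicle level under high corn oil. Cyp2d12 stood at 14.8 and 0.273 FPKM in TCPOBOP and vehicle livers under high corn oil and at 16.8 and 1.27 FPKM under low corn oil, so that its rise was 1.70 larger on the log2 scale at a like TCPOBOP level. Cyp2d11 stood at 1.57 and 0.326 FPKM under high and 0.877 and 1.66 FPKM under low corn oil, in TCPOBOP and vehicle livers, with opposite calls (adjusted p = 0.00115 and 0.0233 in the authors' deposited table). Of 9 measured Cyp2d genes, listed after their values were seen, 4 had a larger (1.12% of all genes) and 0 a smaller response (2.54%). Cyp2d genes are close paralogs that can share reads. The CAR target Ces2c, a carboxylesterase, stood at 12.3 and 2.61 FPKM under high and 11.6 and 6.05 FPKM under low corn oil, in TCPOBOP and vehicle livers. Cyp2a5, a coumarin hydroxylase, stood at 256 and 19.3 FPKM under high and 283 and 48.3 FPKM under low corn oil. In both genes the TCPOBOP levels were alike, and the vehicle level was lower under high corn oil.

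Further vehicle-side genes had larger responses, counted with sign. Derl3, of the degradation machinery of the endoplasmic reticulum, stood at 0.989 and 6.47 FPKM in TCPOBOP and vehicle livers under high corn oil and at 0.670 and 18.2 FPKM under low corn oil. It fell under both regimens, with a response of -2.59 under high and -4.57 under low corn oil. The unnamed transcript G530011O06Rik stood at 0.826 and 0.552 FPKM under high and 0.510 and 11.1 FPKM under low corn oil, in TCPOBOP and vehicle livers. Its response was 0.51 under high and -4.20 under low corn oil. A pooled value like its 11.1 FPKM can come from 1 mouse, and whether it did cannot be seen here. The monooxygenase gene Moxd1 stood at 2.28 and 0.0658 FPKM under high and 2.17 and 0.737 FPKM under low corn oil, and Hamp2, a paralog of the hepcidin gene, at 8.16 and 0.549 FPKM under high and 6.25 and 3.58 FPKM under low corn oil. That the vehicle levels of these genes differed more than the TCPOBOP levels follows from how the side was defined.

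Among the larger responses on the TCPOBOP side or on both sides were several strongly induced genes. Ces2a, a carboxylesterase, stood at 580 and 60.9 FPKM in TCPOBOP and vehicle livers under high corn oil and at 294 and 80.8 FPKM under low corn oil. Pnliprp1, a lipase-related gene, stood at 50.9 and 0.0926 FPKM under high and 18.5 and 0.182 FPKM under low corn oil, in TCPOBOP and vehicle livers. Apoa4, an apolipoprotein of triglyceride-rich particles, stood at 614 and 22.0 FPKM under high and 310 and 30.1 FPKM under low corn oil. All 3 rose under both regimens and were higher in TCPOBOP livers of the high regimen (adjusted p = 0.000362 for Ces2a, 0.00767 for Pnliprp1 and 0.0147 for Apoa4 in the authors' deposited table). Among phase I enzymes known as CAR-responsive, 5 of 25 had a larger (1.12% of all genes) and 1 a smaller response (2.54%). Their median difference was 0.14. The larger ones were Akr1b7, Ces2a, Ces2c, Cyp2a5 and Cyp2b10. The smaller one was Cyp2b9, at 24 and 3.17 FPKM under high and 19.6 and 1.04 FPKM under low corn oil. Many others had near-equal responses, among them Cyp2c29 (difference 0.03) and Cyp2b13 (difference -0.04).

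The major urinary proteins, male-biased pheromone carriers under growth hormone control, had 7 larger (1.12% of all genes) and 0 smaller responses (2.54%) among 17 measured genes. Their median difference was 0.85, with a median TCPOBOP term of 0.75 and a median vehicle term of -0.39. Mup20 stood at 3103 and 387 FPKM in TCPOBOP and vehicle livers under high corn oil and at 1714 and 725 FPKM under low corn oil. Mup7 stood at 248 and 190 FPKM under high and 60.4 and 171 FPKM under low corn oil, in TCPOBOP and vehicle livers. Mup7 fell under low corn oil (adjusted p = 3.19e-06 in the authors' deposited table), while under high corn oil it did not pass the test (adjusted p = 0.954). Mup genes are near-identical copies that share reads, so single members are uncertain. Mup15 stood at 39.3 FPKM in TCPOBOP livers of the high regimen and at most at 1.50 FPKM in the other 3 groups.

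Other genes were called lower under low corn oil only, among them the male-biased Elovl3 and Gstp1. Selenbp2, a selenium-binding protein, stood at 589 and 422 FPKM in TCPOBOP and vehicle livers under high corn oil and at 168 and 489 FPKM under low corn oil. The fatty acid elongase Elovl3 stood at 39.6 and 40.4 FPKM under high and 14.9 and 34.4 FPKM under low corn oil, in TCPOBOP and vehicle livers. Gstp1, a glutathione transferase, stood at 232 and 270 FPKM under high and 144 and 353 FPKM under low corn oil. All 3 fell under low corn oil (adjusted p = 4.64e-07, 0.000843 and 7.89e-05 in the authors' deposited table), and none passed under high corn oil (adjusted p = 1 for each). Of 20 genes listed as male-biased 5 had a larger and 1 a smaller response, and of 18 listed as female-biased 2 had a larger and 4 a smaller one. Over all genes the shares were 1.12% larger and 2.54% smaller. The male-biased list had 10 differences below 0 and 10 above, with a median of -0.0079. The female-biased list had 12 below and 6 above, with a median of -0.21.

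Some genes of the TCPOBOP side stood apart in 1 of the 4 groups. D14Ertd670e stood at 22.9 FPKM in TCPOBOP and 0.0362 FPKM in vehicle livers under high corn oil and was listed at 0 in both groups of the low regimen. Prss22, a serine protease, stood at 5.98 FPKM in TCPOBOP livers under high corn oil and was listed at 0 in the other 3 groups. In vehicle males of the study's 2-week experiment it stood at 7.66 FPKM. In the other direction Gm3219 stood at 0.0823 and 12.0 FPKM in TCPOBOP and vehicle livers under high corn oil and at 3.29 and 4.04 FPKM under low corn oil.

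Smaller responses on the TCPOBOP side, counted with sign, included the fatty acid hydroxylases Cyp4a14, Cyp4a10 and Cyp4a31, targets of the lipid sensor PPAR-alpha. The response of Cyp4a14 was -2.90 under high and 0.22 under low corn oil, and that of Cyp4a10 was -1.68 and -0.31. Cyp4a14 stood at 0.727 and 6.08 FPKM in TCPOBOP and vehicle livers under high corn oil and at 6.22 and 5.34 FPKM under low corn oil. It was lower in TCPOBOP livers of the high than of the low regimen (adjusted p = 0.00181 in the authors' deposited table). The paralog Cyp4a32 went the other way, at 46.6 and 24.6 FPKM under high and 26.0 and 39.6 FPKM under low corn oil, in TCPOBOP and vehicle livers. Of 27 fatty acid oxidation genes 3 had a smaller (2.54% of all genes) and 1 a larger response (1.12%). The median difference was -0.15, that of all genes. Zbed6, a transcription repressor chosen after its values were seen, had lower levels under high corn oil in both kinds of liver. It stood at 1.32 and 4.11 FPKM in TCPOBOP and vehicle livers under high corn oil and at 9.42 and 8.90 FPKM under low corn oil.

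**Figure D4:**
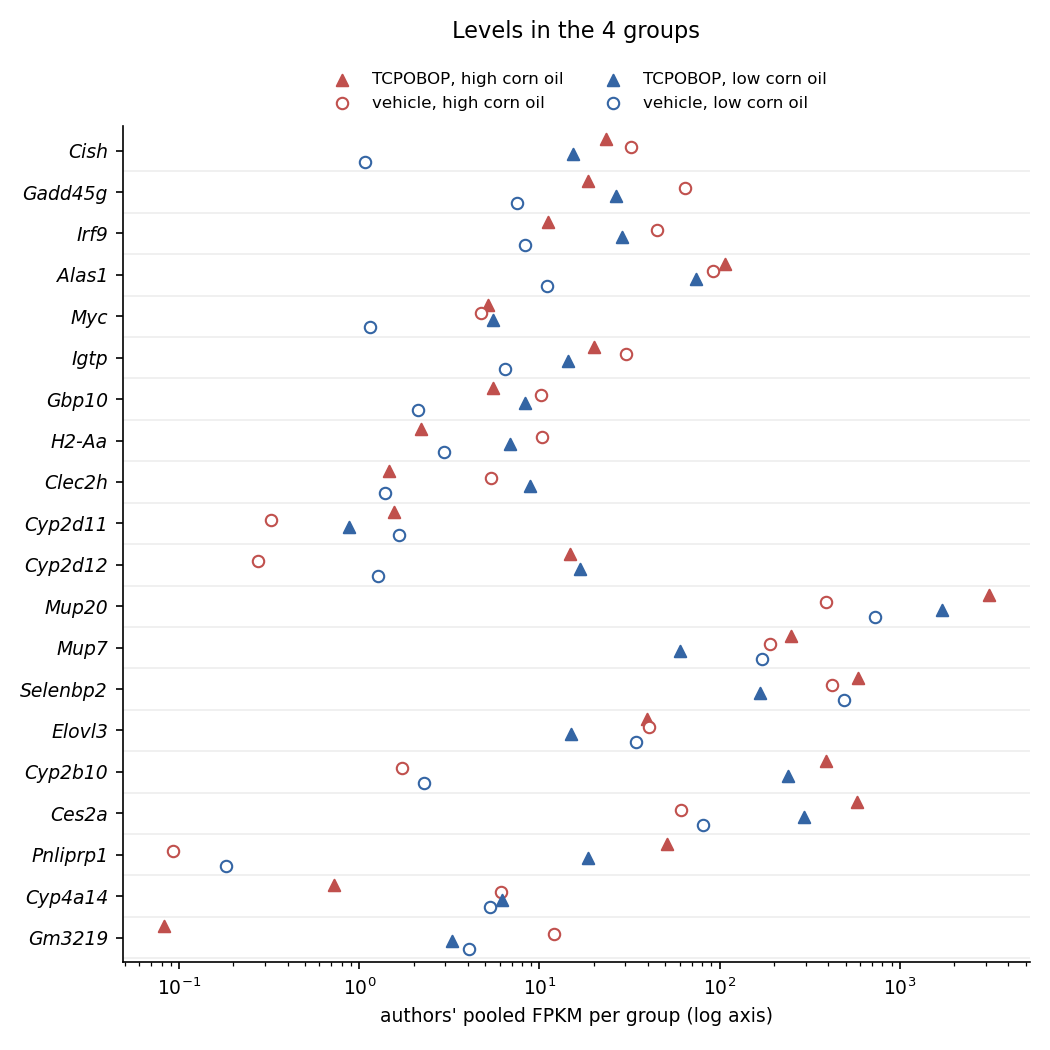
Pooled FPKM of 20 genes in the 4 groups on a log axis, with triangles for TCPOBOP and open circles for vehicle livers, red for high and blue for low corn oil. From Cish to Gbp10 the low corn oil vehicle value lies lowest, as at 1.07 FPKM for Cish and 11.1 FPKM for Alas1.

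The remaining lists held few genes past 2-fold, as did the table as a whole (3.65%), so a count of 0 in a list of this size does not set it apart. None of 22 mitochondrial respiratory chain genes was past 2-fold. In TCPOBOP livers of the high regimen 17 of them were called higher (7.42% of all genes) and 0 lower (6.3%) in the authors' deposited table. Their vehicle term had a median of 0.57. The 22 endoplasmic reticulum stress and chaperone genes had a median TCPOBOP term of 0.68, a median vehicle term of 0.62 and a median difference of 0.02. The 3 of them with larger responses were the heat shock genes Hspa1a, Hspa1b and Hspb1. No gene was past 2-fold among 13 cell cycle genes, 22 periportal urea and amino acid genes, 17 drug and bile transporters or 16 Nrf2 antioxidant targets. Of 18 circadian clock genes 1 was past 2-fold, Ciart, and the list's median terms were -0.63 in TCPOBOP and -0.42 in vehicle livers. Of 15 bile acid genes 1 was past 2-fold, Cyp7a1, which limits the making of bile acids, at 3.50 and 8.66 FPKM under high and 6.30 and 5.78 FPKM under low corn oil.

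Of markers of other liver cells, none of 18 endothelial, 21 stellate cell and matrix, 17 Kupffer cell and 6 cholangiocyte genes was past 2-fold, beside 3.65% of all genes. Endothelial markers had lower levels under high corn oil in both kinds of liver. Of the 18, 8 were called lower (6.3% of all genes) in TCPOBOP livers of the high than of the low regimen in the authors' deposited table. They summed to 238 and 247 FPKM in TCPOBOP and vehicle livers under high corn oil and to 365 FPKM in each group under low corn oil. Lymphocyte and neutrophil markers summed to 108 and 111 FPKM under high and to 134 and 81.9 FPKM under low corn oil, with a median difference of -0.63, the lowest of the 32 lists. Among its 14 genes H2-Aa and H2-Ab1 had smaller and S100a8, a neutrophil gene, a larger response. In this list 10 differences lay below 0 and 4 above. The B cell marker Cd79a stood at 2.58 and 2.57 FPKM under high and 4.12 and 2.66 FPKM under low corn oil, in TCPOBOP and vehicle livers. The T cell marker Cd3e went the other way at low levels, at 0.637 and 0.559 FPKM under high and 0.613 and 1.15 FPKM under low corn oil. Kupffer cell and macrophage markers summed to 286 and 229 FPKM under high and to 314 and 228 FPKM under low corn oil, in TCPOBOP and vehicle livers. The part of leukocytes in the interferon and MHC differences was not tested.

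**Figure D5:**
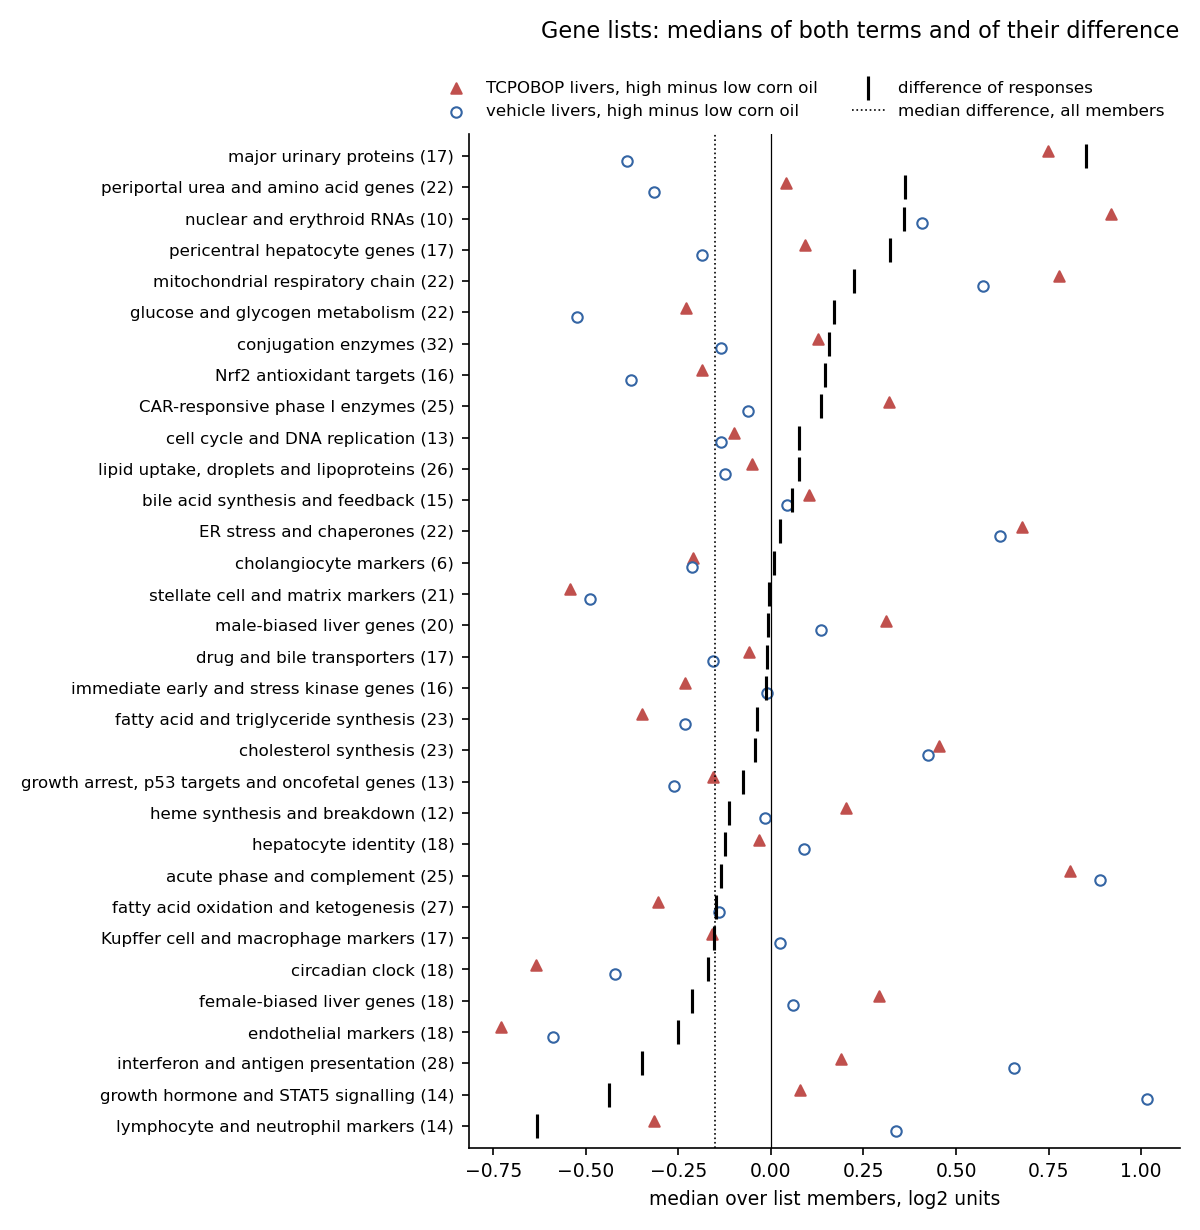
Rows are the 32 gene lists with the number of genes measured. Triangles give the median TCPOBOP term, open circles the median vehicle term and bars the median difference of responses, in log2 units, and the dotted line marks -0.15, the median difference of all genes. Major urinary proteins stand at the top at 0.85, and the vehicle term of the growth hormone and STAT5 list lies farthest right at 1.02.

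Vehicle males of the 2-week experiment, aged 9 to 10 weeks, offer a further set of vehicle livers. They had the low corn oil volume and the set code of the high corn oil libraries. For Cish their level was 8.57 FPKM, between 32.3 FPKM in high and 1.07 FPKM in low corn oil vehicle livers. For Alas1 it was 25.4 FPKM, between 91.6 and 11.1 FPKM. Myc, at 1.21 FPKM, and Irf9, at 7.43 FPKM, were near the low corn oil vehicle level. Of the 76 vehicle-side genes with smaller responses and no small RNA name, 17 lay nearer on the log2 scale to high and 59 nearer to low corn oil vehicle livers. Of the 37 with larger responses, 18 lay nearer to high and 19 nearer to low corn oil vehicle livers. Among all 342 such genes with vehicle levels at least 2-fold apart, 50.6% lay nearer to low corn oil vehicle livers. The younger age and shorter treatment of the 2-week mice cannot be told apart from the set code in this comparison.

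The difference itself could be tested only by approximation, from the authors' 2 fold changes and the standard errors that their p-values imply. Such a value existed for 5101 genes, and for 189 of the 405 past 2-fold. It was missing for Cish, Alas1 and Myc, whose adjusted p of 1 under high corn oil implies no standard error. After Benjamini-Hochberg adjustment 9 genes passed (0.176%), and 295 had an unadjusted p under 0.05. Those with smaller responses were Tbc1d5, Irf9, Clec2h, Alpk1 and Gadd45g, and those with larger responses Cyp2d11, G530011O06Rik, Ces2a and Fn3k. With the deposited p-values taken as unadjusted, 0 genes passed.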

How the data were processed

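Liver nuclear RNA of 4 groups (14 libraries) was analysed from 1 table of the authors' comparisons. Per the submitters' processing notes, reads were aligned with TopHat2 2.0.13 to mm9 and counted with featureCounts 1.4.6-p5, and edgeR was used in a version not given. Per the file headers, reads were counted over gene bodies. The authors deposited 1 FPKM value per group, and the sources used here do not say how replicates were pooled. The signed fold changes were deposited by the authors as a score (numerator over denominator, or the negative inverse) and converted to log2. The p-values were deposited by the authors and pile up at 1 as Benjamini-Hochberg adjusted values do, so they are called adjusted p. Replicates are separate mice per the labels.

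Responses, differences and sides were computed with pandas 2.3.3, numpy 2.4.6 and scipy 1.17.1, with a pseudocount of 0.1 FPKM, which understates changes of low genes. The approximate test recovered each p from its adjusted value. It was tried only on simulated normal fold changes, with the same standard error in both comparisons. Their p-values came from the normal formula that the test inverts, so this trial cannot show how the test fares on these data. Genes and lists were chosen with earlier results of these data known. Named genes were, among those past 2-fold and called in either comparison and without small RNA names, the 12 largest and 12 smallest differences; the 4 largest and smallest of each side at 10 FPKM or more; the 3 largest absolute differences of each list; genes past the approximate test; and Cyp2b10 and Nr1i3. List members and family genes outside this rule were picked with their values in view. The 2 level columns of the fifth comparison were left unused, since they repeat the TCPOBOP levels of the others. RefSeq promoters are GRCm38.p6, not mm9, and were matched by symbol. Alternatives were another pseudocount, level minimum, fold source, centring, side limits and call rule.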

Additional observations from a re-analysis of the deposited data

Results flagged for a closer look

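By the approximate test of the difference between the 2 regimens' responses, 9 genes stood out. Their levels are pooled values, and the test rests on the standard errors that the authors' p-values imply. The adjusted p was 0.000317 for Cyp2d11 and for Tbc1d5, which encodes a regulator of Rab GTPases, and 0.00432 for Irf9 and for Clec2h, a C-type lectin. It was 0.0195 for the kinase gene Alpk1, 0.0371 for Gadd45g, 0.0374 for G530011O06Rik, 0.0418 for Ces2a and 0.0446 for Fn3k, a kinase that acts on glycated proteins. With the deposited p-values taken as unadjusted, the adjusted p of these 9 genes lay between 0.3 and 1.

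Tbc1d5 stood at 0.935 and 2.50 FPKM in TCPOBOP and vehicle livers under high corn oil and at 2.66 and 1.13 FPKM under low corn oil in the authors' deposited table. Clec2h stood at 1.46 and 5.41 FPKM under high and 8.84 and 1.39 FPKM under low corn oil. Alpk1 stood at 1.02 and 2.26 FPKM under high and 1.74 and 1.11 FPKM under low corn oil. Fn3k stood at 2.59 and 0.892 FPKM under high and 1.91 and 2.75 FPKM under low corn oil. In Tbc1d5, Clec2h, Alpk1 and Irf9 the vehicle level was the higher one under high corn oil and the lower one under low corn oil.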

How the results depend on the processing

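No paired analysis was possible because the table holds 1 pooled value per group, and leaving out single mice was not run for the same reason. Depth is unknown, so counting error could not be given.

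All 405 genes past 2-fold kept their direction under the settings that gave them a value. The counts moved more. Larger and smaller responses numbered 60 and 129 with a pseudocount of 1 FPKM, 64 and 118 with a minimum of 5 FPKM, 299 and 571 with no minimum, and 200 and 238 with the authors' deposited fold changes. Smaller responses numbered 181 without small RNA names, a setting chosen after seeing the data. With a pseudocount of 1 FPKM the TCPOBOP side held 67 genes, the vehicle side 83 and both sides 39, and with side limits of 3/4 and 1/4 both sides held 133. The approximate test called 5 genes with a minimum of 5 FPKM and 0 with the deposited p taken as it stands. Where at least 2-fold was also asked, the authors' calls were 463 higher and 215 lower under high corn oil, 351 and 227 under low corn oil, and 202 and 242 between the TCPOBOP groups. With a pseudocount of 1 FPKM, 5 interferon genes and 3 CAR-responsive phase I enzymes were past 2-fold. The difference of Sox9, -0.11, turned to 0.0042 with the deposited fold changes and to 0.044 after centring. With a pseudocount of 1 FPKM 16 of the 124 named genes changed their side of the 2-fold limit, among them Cyp2b10 (0.98), Akr1b7 (0.90), Cyp2d12 (0.66), Moxd1 (0.75) and Lcn2 (-0.88). The cause was not tested.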
